A study of Mus musculus with 10 samples.

Results

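The cytosolic ribosomal proteins are the protein components of the ribosome in the cytoplasm. Their genes were taken from the array by name: every probe for an Rpl or Rps gene symbol of the standard form was collected, and the probe with the highest mean intensity over the 10 arrays stood for its gene. This gave 81 genes of 36161 gene names on the array, 50 of the large subunit and 31 of the small one. The rule used no difference between groups. The values come from neuroblastomas of 10 mice, hybridised as total RNA in Cy3 together with a universal reference in Cy5 made from 11 mouse cell lines. Every value is therefore relative to that reference, as log2 of tumour over reference. The 5 ALK/MYCN tumours came from mice of genotype ALK+/-, MYCN+/-, which carry ALK, a receptor tyrosine kinase, with the activating mutation F1174L as well as a MYCN transgene, on a C57BL/6 x 129X1/SvJ background. The 5 MYCN tumours came from MYCN+/- mice on a 129X1/SvJ background. MYCN is therefore shared by both groups, and genotype and strain background cannot be told apart. The promoters of the transgenes and the ages of the mice are not given in the sources used here. The tumours were whole tissue, so fewer cells of a type and less RNA per cell cannot be told apart either.

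The ribosome has a small subunit, which reads the mRNA, and a large subunit, which joins the amino acids. Each subunit is built in the nucleolus from ribosomal RNA and proteins that are needed in near equal amounts. Transcripts of ribosomal proteins are very abundant, and many begin with a run of C and T bases, the 5′ terminal oligopyrimidine tract, through which their translation follows mTOR signalling. MYC proteins, MYCN among them, are known to promote ribosome production in neuroblastoma.

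The probes behind the results below are 60-base oligonucleotides whose sequences and mm9 positions are given in the array files. The ones shown are those of the 2 genes with the largest falls, the pair of Rps2 probes that behaved differently, the Rps13 probe that separated the ALK/MYCN tumours, and the muscle-type paralogue Rpl3l. For Rpl22, the first 30 bases of its probe are given, with the stop codon in capitals.
Rpl22, chr4:151706515-151706574, plus strand: ggaggaagacgaggatTAGgacacattggt
Rpl13a, chr7:52381388-52381529, minus strand: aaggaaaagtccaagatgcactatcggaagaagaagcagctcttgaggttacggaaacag
Rps2, brightest probe, chr17:24857583-24857642, plus strand: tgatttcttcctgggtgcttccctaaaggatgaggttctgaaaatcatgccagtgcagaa
Rps2, other probe, chr17:42864841-42864900, plus strand: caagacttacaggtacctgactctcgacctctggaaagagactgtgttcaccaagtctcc
Rps13, dimmer probe, chr7:123475080-123475934, minus strand: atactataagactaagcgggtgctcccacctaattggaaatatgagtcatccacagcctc
Rpl3l, chr17:24872413-24872681, plus strand: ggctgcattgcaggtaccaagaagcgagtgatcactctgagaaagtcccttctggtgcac

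Between 53.8% and 58.7% of probe spots were well above background in ALK/MYCN tumours and between 54.7% and 57.7% in MYCN tumours, and no spot was saturated. Precision is limited by the number of arrays. The neuroblast markers Phox2a and Hand2 were well above background and above the reference in all 10 tumours. Some tumours carried markers of other tissues. With each gene centred on its mean over the 10 tumours, adrenal cortex markers averaged 4.12 on the log2 scale in ALK/MYCN 3, and skeletal muscle markers averaged 4.54 in MYCN 2 and 2.07 in MYCN 1. Adipocyte markers averaged 2.61 in ALK/MYCN 3 and 4.05 in MYCN 4, and fibroblast markers 2.38 in MYCN 4. The arrays lay on 3 slides: 1 ALK/MYCN and 1 MYCN tumour on slide 1, 3 ALK/MYCN tumours with 1 MYCN tumour on slide 2, and 1 ALK/MYCN tumour with 3 MYCN tumours on slide 3.

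In ALK/MYCN tumours 16 ribosomal protein genes were lower than in MYCN tumours and none was higher, out of 78 that passed the filter on dim probes. The differences were small. Across the 78 genes the median difference was -0.05 on the log2 scale, 57 genes lay below 0, and 1 gene, Rpl22, differed by more than 0.5. This median turned to 0.02 with the scanner's own processed signals and to 0.07 with ratios centred on spike-in spots, so the direction of the family as a whole depends on the scaling. The calls are from limma with Benjamini-Hochberg adjustment at 0.05 over 22258 genes, and the 16 lower genes are 20.5% of the ribosomal protein genes, against 12.2% lower and 14.2% higher among all genes tested. Of the ribosomal protein genes 1.28% differed by more than 0.5, against 19.1% of all genes, whose median difference was -0.0035. The groups did not overlap for 21 of the 78 genes, 19 of them lower and 2 higher in ALK/MYCN tumours, which is 26.9% against 19.9% of all genes with a value on every array (8.60% lower and 11.3% higher). The median SD within a group was 0.06 for the ribosomal protein genes and 0.18 for all genes tested.

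**Figure D1:**
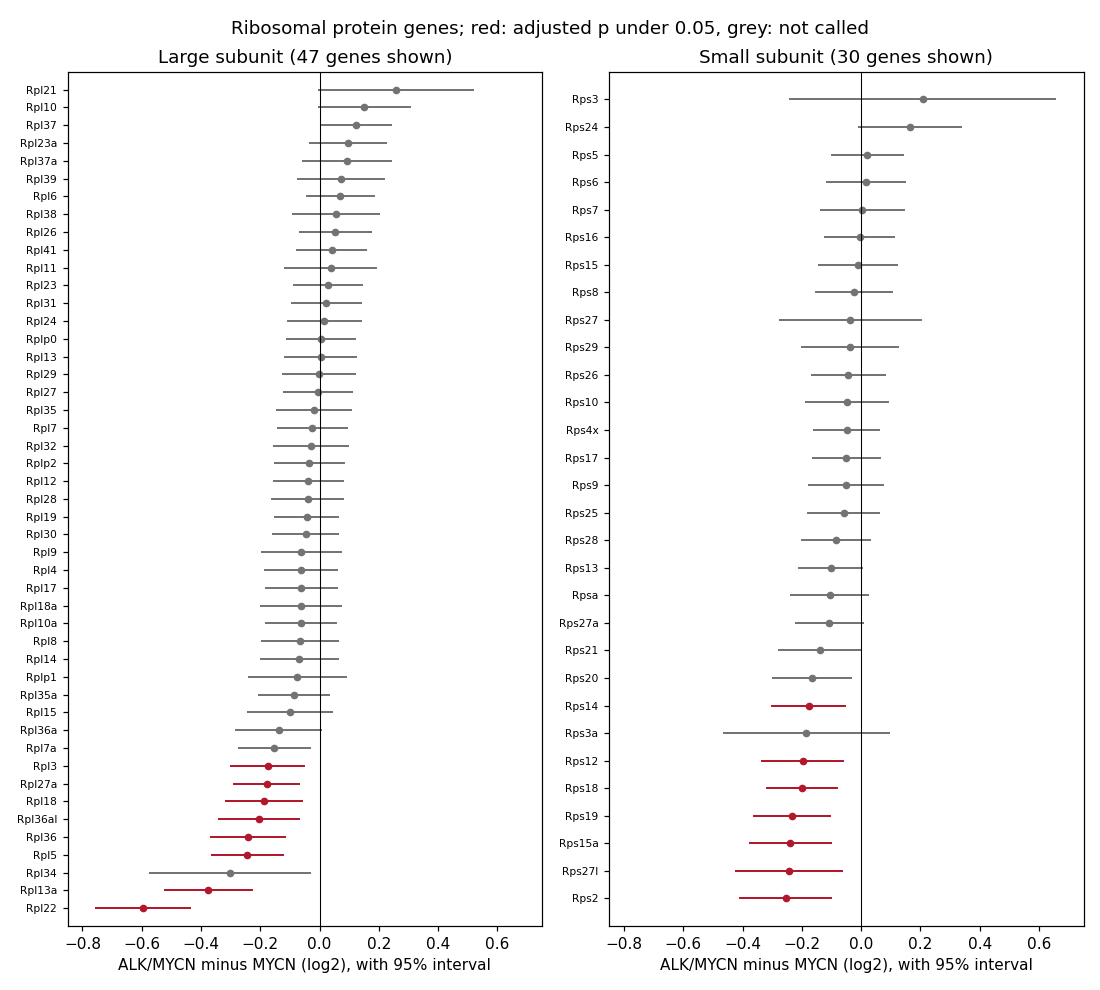
The plot shows the difference in log2 ratio, ALK/MYCN minus MYCN, with its 95% interval for the 47 large subunit genes and 30 of the 31 small subunit genes tested (5 tumours per group); 1 gene is not shown. The genes in red passed the test and all lie below 0 with loess normalisation, where the median was -0.05; with scanner-processed signals it was 0.02, and centring on spike-ins gave 0.07.

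Both subunits contributed called genes. Of 47 large subunit genes 8 were lower in ALK/MYCN tumours, with a median difference of -0.04, and of 31 small subunit genes 8 were lower, with a median of -0.06; a difference between the subunits was not tested. Averaged over the 78 genes, the log2 ratio was -0.57, -0.56, -0.59, -0.57 and -0.61 in ALK/MYCN tumours 1 to 5, against -0.56, -0.51, -0.49, -0.51 and -0.49 in MYCN tumours 1 to 5. MYCN 1 sat within the range of the ALK/MYCN tumours, and the other MYCN tumours lay above them. In both groups most ribosomal protein transcripts were below the cell-line reference: 73 of the 78 genes had a mean ratio under 0, and the median was -0.53. The loess curve follows brightness, and probes of these genes made up 103 of the 500 brightest on the arrays. When all ribosomal protein probes were given no weight in it, 18 genes were lower and none higher, against 12.4% lower and 14% higher among all genes.

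With the slide as a block, 5 of the 16 genes stayed lower, namely Rpl13a, Rpl22, Rpl36, Rpl36al and Rpl5. In that fit 8.45% of all genes tested were lower, so the ribosomal protein genes, 5 of 78, held no excess of lower calls. Within slides, the median difference over all 78 genes was 0.002 on slide 1, -0.04 on slide 2 and -0.09 on slide 3, with 38, 50 and 66 genes below 0. The negative median was thus not seen on slide 1, which held 1 tumour of each group.

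Rpl22 and Rpl13a had the largest falls. Rpl22 encodes a large subunit protein that binds ribosomal RNA, is not needed for protein synthesis in general and is required in mice for normal T cell development. Its log2 ratio was -1.12, -0.93, -0.91, -1.11 and -1.15 in ALK/MYCN tumours 1 to 5, against -0.42, -0.57, -0.40, -0.44 and -0.41 in MYCN tumours 1 to 5. Every ALK/MYCN tumour was below every MYCN tumour, and MYCN 2 was the lowest of its group. The difference was -0.59 with a standard error of 0.07 and an adjusted p of 0.000663. Rpl22 has a further probe, in the 3′ direction on chromosome 4, which was not lower: it gave 0.48 ± 0.19 in ALK/MYCN tumours, against 0.26 ± 0.17 in MYCN tumours (SD, n = 5 each; adjusted p = 0.169 by limma over probes). The fall of Rpl22 is therefore that of its brightest probe, whose sequence holds the stop codon; over the mean of both probes the difference was -0.19 with an adjusted p of 0.0436.

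Rpl13a encodes a large subunit protein that, once phosphorylated and released, joins a complex that silences translation of inflammatory mRNAs in interferon-treated human cells. Its log2 ratio was -0.21, -0.18, -0.03, -0.19 and -0.14 in ALK/MYCN tumours 1 to 5, against 0.09, 0.34, 0.23, 0.25 and 0.21 in MYCN tumours 1 to 5. All ALK/MYCN tumours were below the reference and all MYCN tumours above it. The difference was -0.37 with a standard error of 0.07 and an adjusted p of 0.00339. The further Rpl13a probe was lower as well, by -0.72 with an adjusted p of 0.00808. Its values fell into 2 levels within ALK/MYCN tumours, 0.37 and 0.27 in tumours 1 and 2 but -0.12, -0.31 and -0.28 in tumours 3 to 5, against 0.90, 0.40, 0.76, 0.67 and 0.79 in MYCN tumours 1 to 5.

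The next largest falls were of similar size. Rps2, a small subunit protein near the mRNA entry site, was -0.38, -0.29, -0.41, -0.49 and -0.43 in ALK/MYCN tumours 1 to 5, against -0.23, -0.05, -0.19, -0.25 and -0.01 in MYCN tumours 1 to 5. Rpl5, which carries 5S ribosomal RNA into the large subunit and with Rpl11 can inhibit the p53 ligase Mdm2, was -0.63, -0.71, -0.76, -0.70 and -0.77 in ALK/MYCN tumours, against -0.53, -0.49, -0.42, -0.47 and -0.44 in MYCN tumours. Rpl36, another large subunit protein, was -0.62, -0.59, -0.58, -0.67 and -0.64 in ALK/MYCN tumours, against -0.47, -0.28, -0.38, -0.37 and -0.38 in MYCN tumours. In each of the 3 the groups did not overlap, with differences of -0.25, -0.24 and -0.24 and adjusted p of 0.0235, 0.00982 and 0.0115. Rps15a, a small subunit protein, was -0.62, -0.53, -0.55, -0.69 and -0.64 in ALK/MYCN tumours, against -0.50, -0.33, -0.38, -0.31 and -0.33 in MYCN tumours. Rps19, the first gene found mutated in the human anaemia named after Diamond and Blackfan, was -0.35, -0.33, -0.38, -0.37 and -0.40 in ALK/MYCN tumours, against -0.23, -0.05, -0.20, -0.13 and -0.06 in MYCN tumours. Their groups did not overlap either, and the adjusted p were 0.0178 and 0.0155. Rps27l is taken up with its paralogue below.

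**Figure D2:**
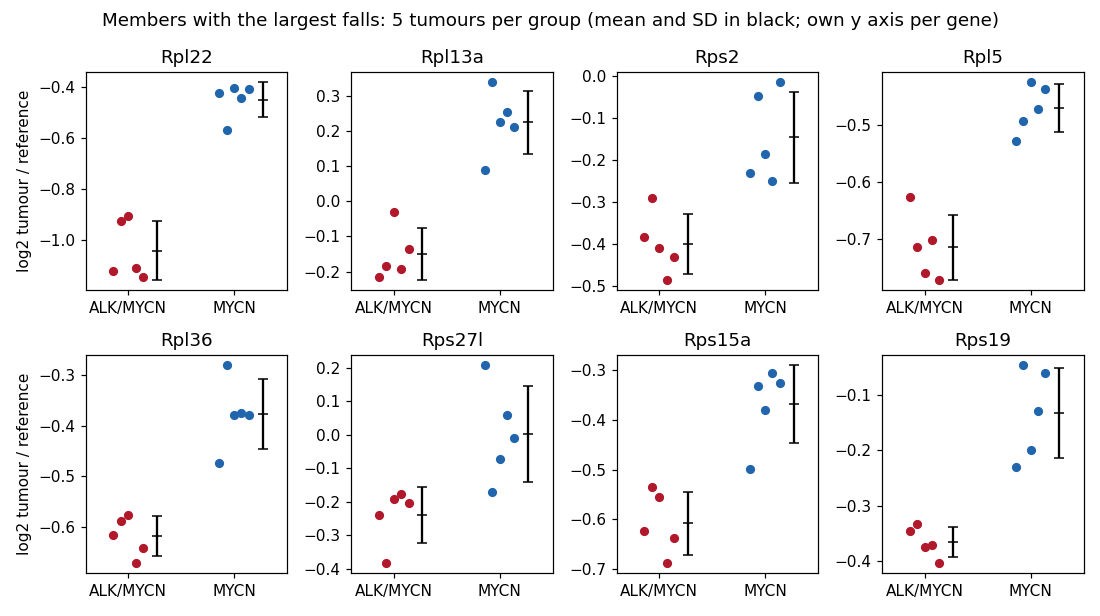
The plot gives the log2 ratio of tumour over reference in each of the 5 ALK/MYCN (red) and 5 MYCN (blue) tumours for the 8 called genes with the largest falls, with group means and SDs in black; the y axes differ between genes. The groups do not overlap in any of the 8, and the gap is widest for Rpl22.

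Also called lower were Rpl36al, Rps18, Rps12, Rpl18, Rpl27a, Rps14 and Rpl3, with differences from -0.21 to -0.18. Rps14, a small subunit protein whose loss contributes to the human 5q- syndrome, differed by -0.18 with an adjusted p of 0.038. Calls of this size changed with the tumours and settings used. With any 1 tumour left out, 7 to 13 of the 78 genes were lower (9 without MYCN 4), against 7.96% to 11.7% of all genes. Without ALK/MYCN 3, MYCN 2 and MYCN 5 together, 2 were lower, Rpl13a and Rpl22, against 6.91% of all genes. Rpl13a was called lower in all 29 other settings tried and Rpl22 in all but the one that used its further probe.

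The other 62 genes did not pass the test, and 51 of them had a 95% interval inside ±0.25. The highest differences were 0.26 for Rpl21, 0.21 for Rps3, 0.17 for Rps24 and 0.15 for Rpl10, whose protein joins the large subunit late in its assembly. For Rpl21, ALK/MYCN 1 stood at -0.82, while the other ALK/MYCN tumours were -1.51 to -1.24 and the MYCN tumours -1.62 to -1.36. The dimmer Rpl21 probe was higher in ALK/MYCN tumours, at 0.52, 0.63, 0.75, 0.74 and 1.04 in ALK/MYCN tumours 1 to 5, against -0.16, 0.39, 0.13, 0.18 and -0.11 in MYCN tumours 1 to 5. There the groups did not overlap, and the difference was 0.65 with an adjusted p of 0.00565 by limma over probes. The stalk proteins that recruit elongation factors had differences near 0, 0.005 for Rplp0, -0.08 for Rplp1 and -0.04 for Rplp2, none of which passed the test. Rpsa, also known as the laminin receptor, differed by -0.11 with an adjusted p of 0.207. Rps6, the phosphorylation target of S6 kinase, was -0.36 ± 0.08 in ALK/MYCN tumours, against -0.38 ± 0.05 in MYCN tumours (SD, n = 5 each), and Rpl11, the partner of Rpl5, was -0.19 ± 0.10 in ALK/MYCN tumours, against -0.23 ± 0.09 in MYCN tumours. For Rps6 the 95% interval of the difference ran from -0.12 to 0.15. Rpl34 had the third lowest difference, -0.30, and did not pass the test; MYCN 5 stood at -0.08 and MYCN 3 at -0.41, while the other MYCN tumours were -0.67 to -0.65. MYCN 5 was also the highest MYCN tumour for Rps3a, at 0.48, and for Rps27, at -0.41; these genes were singled out after their values were seen.

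Several ribosomal proteins have a paralogue that is made in particular tissues. Rpl3l, the form of striated muscle, was well above background in 1 ALK/MYCN and 1 MYCN tumour and did not pass the filter. Its log2 ratio was -0.07, 0.08, 0.12, -0.34 and 0.06 in ALK/MYCN tumours 1 to 5, against 0.35, 4.13, 0.01, 0.37 and 0.03 in MYCN tumours 1 to 5. MYCN 2 stood far above the rest, and this was the tumour with the highest muscle markers: over the 10 markers tested of 13 on the array the centred mean was -1.27 to -0.96 in ALK/MYCN tumours and -0.60 to 4.54 in MYCN tumours. Acta1, muscle actin, was 5.24 and Ckm, muscle creatine kinase, 4.93 in MYCN 2; their part in the Rpl3l value was not tested. Rpl3 itself was lower in ALK/MYCN tumours by -0.18 with an adjusted p of 0.041.

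The testis-type paralogues were at or near background. Rpl10l was well above background on no array; Rpl10 averaged -1.12 in ALK/MYCN tumours, against -1.27 in MYCN tumours. Rpl39l was well above background in 1 ALK/MYCN and 0 MYCN tumours but in the reference on all 10 arrays, with log2 ratios of -6.24 to -5.69 in ALK/MYCN tumours, against -6.28 to -5.53 in MYCN tumours. Rpl39 did not pass the test, with a difference of 0.07. Of the near-identical pair Rpl36a and Rpl36al, Rpl36al was lower by -0.21 with an adjusted p of 0.0316 and Rpl36a differed by -0.14 with an adjusted p of 0.142; whether the pair differs from each other was not tested. Rps27l, which p53 is known to induce, was -0.24, -0.38, -0.19, -0.18 and -0.20 in ALK/MYCN tumours 1 to 5, against 0.21, -0.17, -0.07, 0.06 and -0.01 in MYCN tumours 1 to 5, with a difference of -0.24 and an adjusted p of 0.049. The Rps27l call was lost in 21 of the 29 other settings, with adjusted p of up to 0.67. Rps27 differed by -0.04, and its probes are placed on chromosome 9 in mm9 while RefSeq places the gene on chromosome 3, and whether they read a related copy was not tested. The same holds for Rps29, placed on chromosome 2 in mm9 and on chromosome 12 by RefSeq, which differed by -0.04. The X-linked Rps4x differed by -0.05 and did not pass the test; Rps4l was not analysed here.

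Probes of the same gene mostly gave similar differences. Of 54 genes with more than 1 kept probe the median range of the differences between probes was 0.08, but it exceeded 0.5 in 7 genes, among them Rps15a, Rpl22, Rps2, Rps6, Rps3 and Rpl15. Over the 176 kept probes, 26 were lower and 3 higher in ALK/MYCN tumours, which is to be read against 11.2% lower and 13.7% higher among all 30851 kept probes. Rps15a was the only gene with probes called in both directions: 2 were lower by -0.24 each, and a dimmer one lying several kilobases further 3′ was 1.18 ± 0.14 in ALK/MYCN tumours, against 0.58 ± 0.13 in MYCN tumours (SD, n = 5 each), a rise of 0.61 with an adjusted p of 0.00149. Of the 15 further probes of the genes called lower, 9 had a negative difference, 5 were called lower and 1 higher.

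The further Rps2 probe divided the ALK/MYCN tumours into 2 levels while the MYCN tumours stayed together. This probe, placed at another position of chromosome 17 than the brightest one, was high in ALK/MYCN tumours 1, 2 and 4: 0.99, 1.15, -0.26, 0.77 and -0.29 in ALK/MYCN tumours 1 to 5, against -0.12 to 0.13 in MYCN tumours. The brightest Rps2 probe, given above, showed no such division.

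Another division set ALK/MYCN tumours 1 and 2 apart. The brightest probe of Rps3, a protein at the mRNA entry channel, was 0.21, 0.24, -0.66, -0.70 and -0.64 in ALK/MYCN tumours 1 to 5, against -0.58 to -0.42 in MYCN tumours. The dimmer Rps13 probe was -0.53, -0.55, -1.31, -1.27 and -1.43 in ALK/MYCN tumours 1 to 5, against -1.25 to -1.21 in MYCN tumours. A dimmer Rps3 probe with no position in mm9 divided nothing and was lower in ALK/MYCN tumours, at -0.35 ± 0.05 against 0.01 ± 0.05 in MYCN tumours (SD, n = 5 each; adjusted p = 0.00204 by limma over probes). The uncalled value of Rps3 in the test above, 0.21, is thus that of a divided probe. Rps3 and Rps13 are on chromosome 7, as is Rpl13a. In all, 6 kept probes of the ribosomal protein genes had an SD in ALK/MYCN tumours over 3 times that in MYCN tumours and over 0.3, and none the reverse; another of the 6, a dimmer Rpl15 probe, was 1.21, 1.02, 1.06, 1.73 and 1.68 in ALK/MYCN tumours 1 to 5, against 0.83 to 1.03 in MYCN tumours. Among all kept probes 613 did so and 1144 the reverse. The ALK/MYCN mice had a mixed strain background and the MYCN mice did not; its part in these divisions was not tested.

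**Figure D3:**
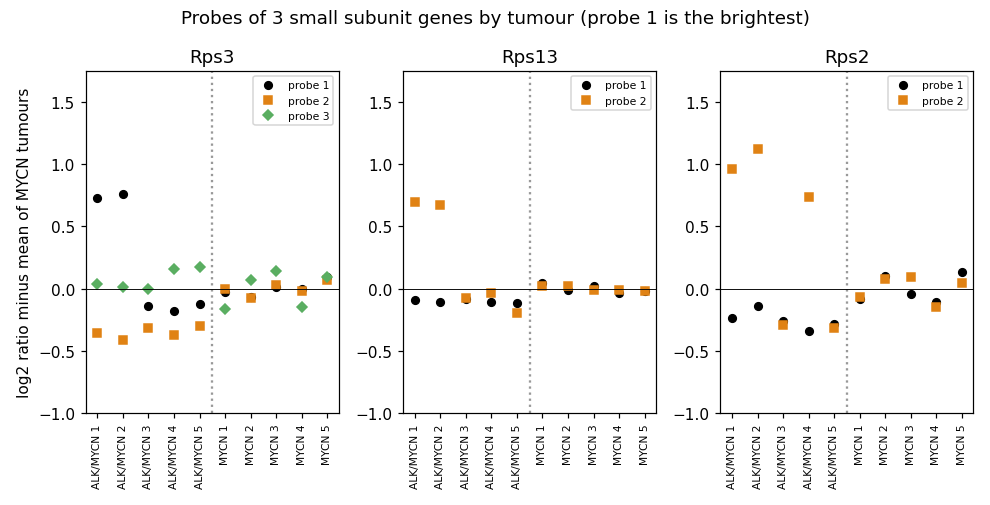
Each panel shows every kept probe of 1 gene, as the log2 ratio in each tumour minus the probe's mean in MYCN tumours, with ALK/MYCN tumours left of the dotted line. Probe 2 of Rps2 is high in ALK/MYCN 1, 2 and 4, and probe 1 of Rps3 and probe 2 of Rps13 are high in ALK/MYCN 1 and 2, while other probes of these genes are not.

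The promoters were compared by their letters, since many of the genes are known to be translated together. RefSeq windows of build GRCm38.p6, from 250 bases before to 50 after the annotated start, matched 61 of the 81 genes. The 40 bases around the start are given for Rpl13a, called lower with a long pyrimidine run, and for Rps6, not called with such a run. They are also given for Rpl22, called lower without a long run at the start shown. Rpl22 had 2 annotated windows, and the other was not read. Capitals mark the longest run of C and T that begins close to the start.
Rpl13a, chr7:45128726-45128765, minus strand: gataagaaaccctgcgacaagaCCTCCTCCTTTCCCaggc
Rps6, chr4:86857348-86857387, minus strand: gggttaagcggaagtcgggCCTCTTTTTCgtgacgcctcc
Rpl22, chr4:152324416-152324455, plus strand: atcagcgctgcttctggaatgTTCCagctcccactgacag

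A C within 5 bases of the start, followed on the transcribed strand by 4 or more C or T, was present in 26 of the 61 windows, or 42.6%, against 18.3% of the windows of all 27025 genes. It was present in 7 of the 12 windows of genes called lower. The ETS-type letters CCGGAAG, on either strand, were in 26 of the 61 windows, or 42.6%, against 9.08% of all windows, and in 4 of the 12 of genes called lower. The E-box CACGTG, the letters that MYC with its partner MAX is known to bind and which read the same on both strands, was in 5 of the 61, or 8.2%, against 7.09% of all windows. None of these counts was tested, and windows were taken at the annotated start that lies lowest on the chromosome where a gene had several.

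Ribosomal genes whose names fall outside the rule did not pass the test, apart from 2. Fau, whose product is cut to give Rps30, was -0.98, -1.02, -1.11, -0.97 and -1.09 in ALK/MYCN tumours 1 to 5, against -1.21, -1.19, -1.20, -1.22 and -1.18 in MYCN tumours 1 to 5. It was higher by 0.17 with an adjusted p of 0.0395, a call lost in 20 of the 29 other settings, with adjusted p of up to 0.311. Rpl7l1, a paralogue of Rpl7, was lower by -0.51 with an adjusted p of 0.00956. Gnb2l1, the scaffold protein Rack1, differed by -0.11 and Rpl22l1, the paralogue of Rpl22, by 0.04, and neither passed the test.

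Genes that build or use the ribosome gave counts to set beside those of the ribosomal proteins and the 12.2% lower and 14.2% higher among all genes tested. Of 25 ribosome biogenesis genes 16 were lower and 2 higher in ALK/MYCN tumours, with a median difference of -0.40. Among them fibrillarin (Fbl), the rRNA methyltransferase, was 0.05 ± 0.09 in ALK/MYCN tumours, against 0.54 ± 0.04 in MYCN tumours, and Ppan was 0.64 ± 0.18 in ALK/MYCN tumours, against 1.48 ± 0.17 in MYCN tumours (SD, n = 5 each). Of 75 mitochondrial ribosomal protein genes 22 were lower and 1 higher, with a median of -0.16. With spike-in centring none was lower and 16 were higher, and with median centring 6 were lower and 3 higher. The counts of all these lists under spike-in centring are to be read against 3.68% lower and 38.3% higher among all genes. The median of all genes was then 0.23. Those under median centring are to be read against 6.06% lower and 20% higher among all genes. Of 16 other genes whose mRNAs carry a terminal pyrimidine tract 5 were lower and 2 higher, with a median of -0.08: Npm1, nucleophosmin, fell by 0.51, and Nap1l1 fell by 0.38. With spike-in centring 1 of the 16 was lower and 5 were higher, and the median turned to 0.11. Of 23 initiation factor genes and regulators 3 were lower and 2 higher, or 13.0% and 8.70%, close to the shares among all genes, and with spike-in centring 0 were lower and 5 higher. Among them Eif4a2, an RNA helicase, was higher by 0.71. Differences between the lists were not tested. Over all settings tried, the median of the biogenesis list stayed below 0, from -0.55 to -0.12, with 5 lower and 3 higher under spike-in centring, while that of the mitochondrial list ran from -0.24 to 0.09.

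**Figure D4:**
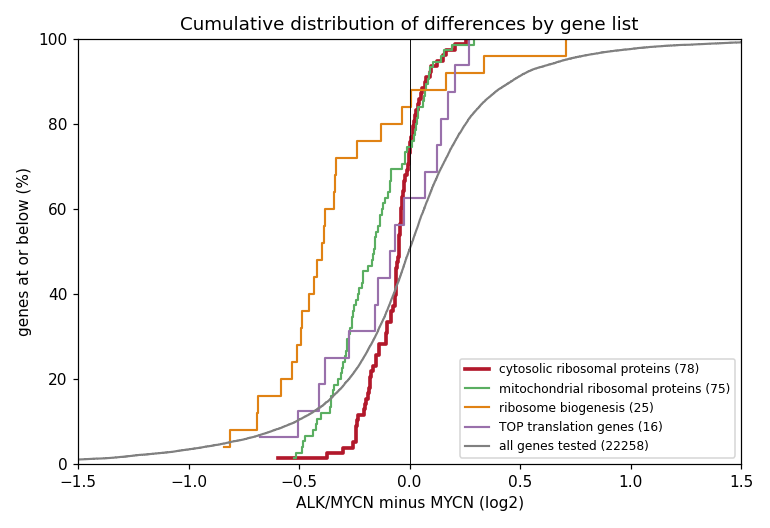
The curves give, for each list, the share of genes (y axis, percent) whose difference in log2 ratio, ALK/MYCN minus MYCN, is at or below the value on the x axis. The cytosolic ribosomal protein genes (red) rise steeply around -0.05, where the medians were -0.40 for ribosome biogenesis and -0.16 for mitochondrial ribosomal proteins; the red median turned to 0.02 with scanner-processed signals and, centred on spike-ins, to 0.07.

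Markers of some other cell types differed between the groups. The counts are to be read against 12.2% lower and 14.2% higher among all genes tested. Endothelial markers were lower in ALK/MYCN tumours for 8 of 10 genes, with a centred mean of -0.80 to 0.18 in ALK/MYCN tumours, against 0.03 to 1.00 in MYCN tumours. Macrophage markers were lower for 7 of 10 genes, at -0.67 to -0.16 in ALK/MYCN tumours, against -0.29 to 0.87 in MYCN tumours, and erythroid markers for 5 of 5, at -0.97 to -0.45 in ALK/MYCN tumours, against -0.14 to 1.21 in MYCN tumours. Of 5 Schwann cell markers 3 were higher, as were 3 of 10 neuroblast markers. Lower were 2 of 10 fibroblast, 2 of 10 skeletal muscle, 2 of 6 lymphocyte and 1 of 5 adipocyte markers, and none of 3 adrenal cortex and 2 testis markers passed the test. The fibroblast means overlapped, at -1.88 to -0.01 in ALK/MYCN tumours, against -1.62 to 2.38 in MYCN tumours. So did the adipocyte means, at -2.67 to 2.61 in ALK/MYCN tumours, against -0.77 to 4.05 in MYCN tumours. The part of these cell types in the calls was not tested beyond the covariate given next. With the mean of the endothelial, macrophage and fibroblast markers as a covariate, 3 of 78 ribosomal protein genes were lower, Rpl13a, Rpl22 and Rpl5, and none was higher. Among all genes 6.59% were lower and 9.19% higher with this covariate, so the 3 genes were no excess of lower calls.

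The calls also depended on the scaling of the arrays. With ratios centred on spike-in spots, 6 of 78 ribosomal protein genes were higher, namely Rpl10, Rpl21, Rpl23a, Rpl37, Rpl39 and Rps24, and 2 lower, Rpl13a and Rpl22. The median of all genes shifted to 0.23, and 38.3% of them were higher and 3.68% lower. The 6 higher genes are thus a far smaller share than among all genes. With ratios centred on the array median and no loess, 1 ribosomal protein gene was higher and 7 lower. Among all genes 20% were then higher and 6.06% lower, with a median of 0.09. The median of the ribosomal protein genes was below that of all genes in each of the 29 other settings, with a gap of -0.161 to -0.006. These settings reuse the same tumours and are not independent. The smallest gap, with the deposited value table, is small beside the SD within groups of the tumours' ribosomal protein medians, 0.0448.

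**Figure D5:**
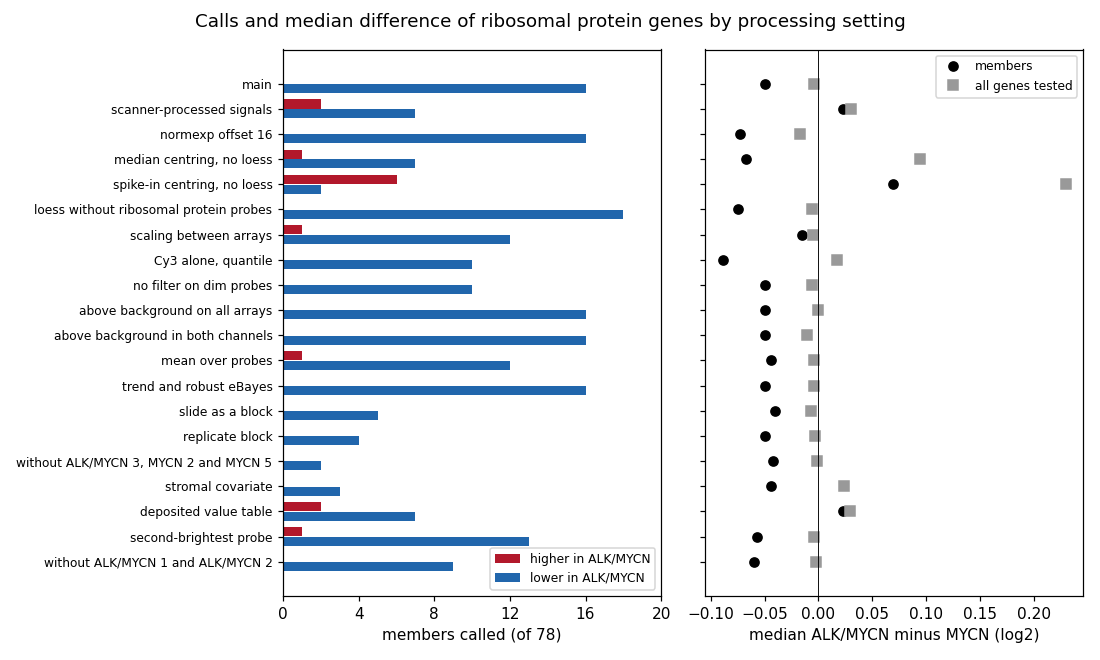
The left panel counts the ribosomal protein genes called higher (red) or lower (blue) in ALK/MYCN tumours of 78 under each processing setting other than those leaving out a single tumour, and the right panel gives the median difference of the 78 genes (black) and of all genes tested (grey). Lower calls ran from 2 to 18 and higher calls from 0 to 6, and the black median lay above 0 with scanner-processed signals, the deposited value table and spike-in centring.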

How the data were processed

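Per the file headers, spot intensity values came from Agilent Feature Extraction, version 10.7.3.1, with 60-base probes placed on mm9, and the authors deposited them for each array; per the labels, Cy3 held tumour RNA and Cy5 the reference. The deposited value table of log2 ratios equals, within 0.000501, the log2 quotient of the scanner's processed Cy3 and Cy5 intensities, so its scale and direction are known; its array medians ran from -0.186 to -0.035. Mean intensities were background-corrected with normexp (offset 50) and normalised by loess within arrays, control spots at weight 0. Ratios are tumour over reference, and outlier spots were left out. Probes were kept where at least 5 arrays had them well above background in Cy3, and each gene was represented by its brightest probe. The test was limma's moderated one, two-sided (limma 3.58.1, R 4.3.3; lmFit, eBayes); p-values were adjusted by Benjamini-Hochberg across 22258 genes, and the procedure was tested on simulated data. Named genes are the 8 largest falls among called members, paralogue pairs, genes of set roles, members below the filter and up to 4 genes of smallest p per other list. Members and lists were chosen with earlier results of these data known. Nothing in the labels beyond 1 tumour per sample describes replication. Some genes of these lists are counted but not reported here by name.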

Additional observations from a re-analysis of the deposited data

Results flagged for a closer look

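In 7 cases a single tumour lay far from the other 4 of its group, relative to the group's range. They arose among 78 genes tested in each group, 4 cases in ALK/MYCN and 3 in MYCN tumours. Chance gives about 1 in 20 groups, which is close to the share seen. ALK/MYCN 4 was high for Rpl38, at -0.49 against -0.71 to -0.68 in the other ALK/MYCN tumours, for Rps24, at 0.575 against 0.17 to 0.27, and for Rps7, at -0.013 against -0.22 to -0.19. ALK/MYCN 5 was low for Rps3a, at -0.295 against -0.17 to -0.14. MYCN 2 was low for Rpl22, at -0.57 against -0.44 to -0.40 in the other MYCN tumours. MYCN 1 was low for Rpl39, at -0.875 against -0.70 to -0.64, and for Rpl41, at -0.544 against -0.43 to -0.40.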

How the results depend on the processing

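The count of 16 genes lower and 0 higher, with a median of -0.05, changed with several choices. Genes lower and higher were 7 and 2 with scanner-processed signals and with the deposited value table, where the median reversed to 0.023, 7 and 1 with median centring, and 2 and 6 with spike-in centring, where it reversed to 0.069. Among all genes 9.21% were lower and 12.5% higher with scanner-processed signals. These shares were 6.06% and 20% with median centring, and 3.68% and 38.3% with spike-in centring. Ribosomal protein genes lower and higher were 12 and 1 with scaling between arrays and with the mean over probes. They were 13 and 1 with the second-brightest probe, an alternative chosen after seeing the data. Of all genes 11.2% were lower and 12.9% higher with scaling, and 11.9% and 13.8% with the mean over probes. With the second-brightest probe these shares were 12.2% and 14.2%. Lower ribosomal protein genes numbered 10 with Cy3 alone and without a filter, 5 with slide as a block and 3 with the stromal covariate. There were 2 without ALK/MYCN 3, MYCN 2 and MYCN 5, and 9 without ALK/MYCN 1 and ALK/MYCN 2, also chosen after seeing the data. Among all genes 10.5% were lower with Cy3 alone, 6.37% without a filter, 8.45% with slide as a block and 6.59% with the stromal covariate. The share was 6.91% without ALK/MYCN 3, MYCN 2 and MYCN 5, and 7.65% without ALK/MYCN 1 and ALK/MYCN 2. Leaving out each tumour gave 7 to 13 lower and 0 higher, with medians of -0.066 to -0.043; 7 were lower without ALK/MYCN 5 and 9 without ALK/MYCN 3, 9 without ALK/MYCN 4, and 9 without either MYCN 3 or MYCN 4. Replicate numbers did not pair the samples (correlations of same-numbered deviations of 0.339 and -0.091 to -0.02). With the replicate number as a block 4 genes were lower, against 9.42% of all genes. Among all genes, 53.8% of calls were higher, against 76.8% after median and 91.2% after spike-in centring. The difference of Rpl36al shrank to 0 with spike-in centring, and its call was lost. Signs of genes called in either fit reversed for Rps2 (0.094) and Rps15a (0.044) with the mean over probes. With the second-brightest probe they reversed for Rpl22 (0.222), Rps2 (0.442) and Rps3 (-0.352). The cause was not tested. Signs of uncalled genes changed as well, among them Rplp0 in 9 settings, Rps6 in 8 and Rps27 in 7.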
